A study of Mus musculus with 6 samples.

Results

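The genes described here are Ctgf, Cyr61, Ankrd1, Amotl2 and Ajuba, 5 genes named as a set of CCN family members and targets of the transcriptional co-activators YAP and TAZ, and found by their row names. All 5 were among the 28327 genes with a transcript in the single-cell tables and among the 49492 genes of the bulk tables. The material was mouse kidney glomeruli, the capillary tufts that filter blood, from 8-week-old males of the outbred CD1 IGS stock. Glomerular cells fixed in 80% methanol gave 4 Drop-seq libraries (replicates 1 to 4), whose tissue label says dissociated cells while their source label says whole glomeruli. In Drop-seq, droplets capture single cells and each captured transcript is counted through a unique molecular identifier (UMI). In bulk, 1 library came from dissociated, sorted and methanol-fixed glomerular cells (95 ng of total RNA) and 1 from whole glomeruli taken live without fixation (500 ng). No genotype or treatment other than dissociation, sorting and fixation separated the groups. Whether each Drop-seq library had its own animals is not in the labels; the p-values therefore reflect variation among 4 libraries, possibly technical.

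YAP and TAZ are held in the cytoplasm when the Hippo kinases LATS1 and LATS2 phosphorylate them. In the nucleus they bind TEAD transcription factors and raise a set of target genes. Ctgf (CCN2) and Cyr61 (CCN1) encode secreted matrix-associated proteins of the CCN family that bind integrins and heparan sulfate proteoglycans, Ankrd1 encodes a muscle ankyrin repeat protein of the nucleus and the sarcomere, Amotl2 an angiomotin-like junction protein that binds YAP, and Ajuba a LIM-domain protein that binds LATS kinases. In the kidney, CTGF is best known from glomerular scarring, and YAP is known in mice as a factor that podocytes need to survive.

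In the GENCODE annotation of GRCm38, Ctgf (ENSMUSG00000019997, listed there as Ccn2) lies on chromosome 10 from 24595442 to 24598683 on the plus strand. Cyr61 (ENSMUSG00000028195, listed as Ccn1) lies on chromosome 3 from 145646976 to 145649981 on the minus strand. Ankrd1 (ENSMUSG00000024803) is on chromosome 19 from 36111961 to 36120099, minus strand, and Ajuba (ENSMUSG00000022178) on chromosome 14 from 54567472 to 54577558, minus strand. Amotl2 (ENSMUSG00000032531) is on chromosome 9 from 102716672 to 102733418, plus strand. The 5 genes thus share no chromosome, and the deposited tables carry symbols without coordinates.

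Because TEAD factors carry YAP and TAZ to DNA, the 250 bases before each RefSeq start were searched on both strands for the TEAD core GGAATG, which reads CATTCC on the other strand. RefSeq promoters of build GRCm38.p6 matched 4 of the 5 genes. Among 32851 RefSeq promoters of the same length, 12.6% held at least 1 core and 1.02% held at least 2. Cyr61 and Amotl2 held 1 core each, and Ankrd1 and Ajuba 2 each. The AP-1 core TGANTCA, on both strands, was in none of the 4 and in 6.75% of all. The first 2 letters of that core can coincide with the last 2 of GGAATG. A match is a description of letters and not of binding. The Cyr61 and Ajuba windows lie outside annotated exons and are shown whole, at chr3:145649986-145650235 and chr14:54577662-54577911, both on the minus strand, 5′ to 3′ with the TEAD core in capitals. RefSeq starts differ from the GENCODE gene ends given above. The Ankrd1 and Amotl2 windows lie inside the GENCODE genes, with 250 and 136 of their 250 bases in annotated exons, so only 30 bases around each core are shown.
Cyr61: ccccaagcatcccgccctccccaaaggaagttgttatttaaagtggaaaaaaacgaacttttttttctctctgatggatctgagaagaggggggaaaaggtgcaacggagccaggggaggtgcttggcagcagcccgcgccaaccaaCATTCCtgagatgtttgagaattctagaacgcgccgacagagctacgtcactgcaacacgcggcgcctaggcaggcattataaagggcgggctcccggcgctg
Ajuba: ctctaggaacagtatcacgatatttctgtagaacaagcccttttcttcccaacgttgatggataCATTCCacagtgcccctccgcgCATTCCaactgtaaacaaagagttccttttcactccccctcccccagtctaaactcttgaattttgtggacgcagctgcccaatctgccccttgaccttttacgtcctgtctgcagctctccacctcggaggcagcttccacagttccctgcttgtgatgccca
Ankrd1, first core: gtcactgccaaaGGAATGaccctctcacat
Ankrd1, second core: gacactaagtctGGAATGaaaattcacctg
Amotl2: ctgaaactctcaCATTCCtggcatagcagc
The cores stood 103 bases before the RefSeq start in Cyr61, 186 and 164 in Ajuba, 210 and 123 in Ankrd1 and 65 in Amotl2. The 30-base stretches are chr19:36120037-36120066 and chr19:36119950-36119979 on the minus strand for Ankrd1, and chr9:102717727-102717756 on the plus strand for Amotl2.

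The Drop-seq tables held 3528543 to 6411775 UMIs per library, and 13993 of 15465 barcodes were kept. Of these, 10354 were podocyte-like (cells whose foot processes wrap the capillaries), 1855 endothelial-like, 990 tubular-like, 389 parietal epithelial-like (Bowman's capsule), 335 mural-like (mesangial, smooth muscle and renin cells together) and 70 immune-like. Names rest on marker lists that did not include the 5 genes. Only the 5 genes and the listed pathway genes were left out of clustering. Marker genes, and genes named below from outside those lists, were not left out, so their differences between types are not independent of it. The parietal epithelial-like name is insecure. Of its 12 markers, 3 had a UMI in at least 5% of the cluster's cells, among them Dkk3, with 194 CPM on average there and at most 12.7 CPM in the other types. The summed markers of that list made up 0.0552% ± 0.0239 of the cluster's UMIs, less than the 0.213% ± 0.0178 in tubular-like, 0.172% ± 0.0174 in endothelial-like and 0.0794% ± 0.0128 in mural-like cells and more than the 0.0109% in podocyte-like cells (SD, n = 4 libraries). Cd24a alone averaged 1688 CPM in endothelial-like cells, against 105 CPM in the cluster. Podocyte markers made up 2.12% ± 0.362 of its UMIs, against 2.91% ± 0.102 in podocyte-like cells (SD, n = 4 libraries). Mural markers made up 0.0720% ± 0.0294 of the cluster's UMIs, on average more than its own list, though not in replicate 3. In podocyte-like cells they made up 0.00642%. The mural marker Tagln was among the 10 genes that led the cluster by fold, as was Dkk3. Pairs of libraries shared 8 to 10 barcodes, at most 1 of them among kept cells. The bulk libraries held 24555632 (dissociated) and 28407317 (whole) gene counts.

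In the dissociated cells the highest mean of each of the 5 genes was in parietal epithelial-like cells and the next in podocyte-like cells. For Amotl2 and Ajuba these types did not differ past the threshold. All 5 were higher in podocyte-like cells than in the mean of the other 4 types, where 25.6% of the 7551 genes tested were called higher and 20.4% lower (edgeR's quasi-likelihood test with Benjamini-Hochberg adjustment over all genes, threshold 0.05, library as a block). In parietal epithelial-like cells 4 of 5 were higher and 0 lower, against 10.7% and 5.06% of all genes. Endothelial-like cells had 4 of 5 lower and 0 higher, against 21.9% and 28.2% of genes, and tubular-like cells 4 of 5 lower and 0 higher, against 27.3% and 26.3%. Mural-like cells had 1 of 5 lower and 0 higher, against 9.14% and 11.9%. The median log2 fold of the 5 genes reached 1.10 for podocyte-like cells and 1.97 for the parietal epithelial-like cluster, beside 0.02 over all genes in each. It was -1.31 in endothelial-like cells (0.01 over all genes), -0.84 in mural-like cells (-0.12) and -0.61 in tubular-like cells (-0.08). Podocyte-like cells held 85.0% to 88.7% of each gene's UMIs in kept cells and made up 73.4% ± 5.17 of kept cells (SD, n = 4 libraries).

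**Figure D1:**
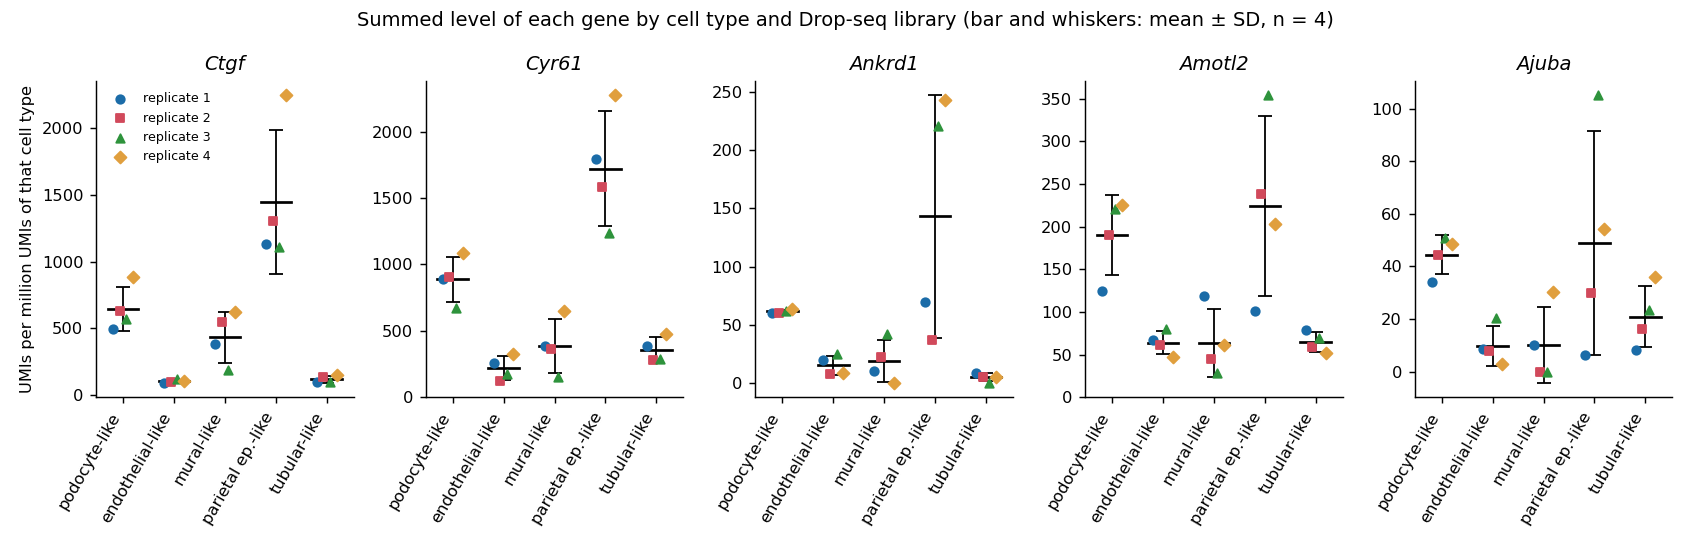
Each panel plots 1 gene, with CPM, the gene's share of the cell type's UMIs, on the y axis and the 5 cell types on the x axis. Coloured symbols are the 4 Drop-seq libraries, the bar is their mean and whiskers are the SD. Ctgf and Cyr61 were highest in parietal epithelial-like and then in podocyte-like cells in every library, while Ankrd1 and Ajuba spread widely in the parietal epithelial-like and mural-like cells, which were few.

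Ctgf, whose product is also called connective tissue growth factor, reached 494, 631, 570.2 and 882 CPM (UMIs of the gene per 1e+06 UMIs of the type) in podocyte-like cells of replicates 1 to 4. It was higher still in parietal epithelial-like cells, at 1131, 1302, 1111 and 2246 CPM. The 2 sets do not overlap, and replicate 4 was the highest library in both. Mural-like cells gave 378, 543, 184 and 619 CPM, from only 13 to 61 UMIs per library. Tubular-like cells stayed at 92.8, 134, 93.4 and 146 CPM and endothelial-like cells at 92.7, 95.8, 117 and 102 CPM, all under the lowest mural-like library. Against the mean of the other types, Ctgf rose by 2.44 ± 0.107 (log2, SE) in parietal epithelial-like cells (edgeR adjusted p = 5.50e-33) and by 1.10 ± 0.0861 in podocyte-like cells (adjusted p = 2.79e-19). It fell by 2.12 in endothelial-like cells (adjusted p = 8.83e-24) and by 1.64 in tubular-like cells (adjusted p = 8.70e-20), in each of the 4 libraries. The mural-like fold was 0.22 (adjusted p = 0.375), with 3 of 4 libraries below the plain mean of the others. In the order of levels, parietal epithelial-like exceeded podocyte-like cells (log2 fold 1.08, edgeR adjusted p = 8.05e-13), podocyte-like exceeded mural-like cells (0.70, adjusted p = 0.000152) and mural-like exceeded tubular-like cells (1.49, adjusted p = 8.54e-10). Among all genes, podocyte-like cells had 2.09% higher and 3.89% lower than parietal epithelial-like cells, 16.4% and 16.0% than mural-like cells, and 30% and 28.3% than tubular-like cells. Mural-like cells had 17.9% higher and 19.7% lower than tubular-like cells, and endothelial-like cells 33.3% and 28.1% than tubular-like and 15.1% and 10.1% than mural-like cells. Tubular-like and endothelial-like cells did not differ past the threshold (0.38, 95% interval 0.03 to 0.74, adjusted p = 0.0616), but did without replicate 1 (0.46, adjusted p = 0.0438) or replicate 3 (0.63, adjusted p = 0.00648).

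Cyr61, the other abundant CCN gene, followed the same order at the top and another below it. Podocyte-like cells gave 891, 904, 674 and 1083 CPM in replicates 1 to 4, and parietal epithelial-like cells 1794, 1584, 1236 and 2273 CPM. Every parietal epithelial-like value stood above every podocyte-like value. Mural-like cells gave 388, 362, 156 and 649 CPM, tubular-like cells 388, 280.2, 292 and 479 CPM, and endothelial-like cells 261, 126, 174 and 326 CPM. These last sets overlap one another but lie below all podocyte-like values. Cyr61 rose by 1.97 ± 0.10 (log2, SE) in parietal epithelial-like cells (edgeR adjusted p = 3.79e-29) and by 0.88 ± 0.0840 in podocyte-like cells (adjusted p = 3.15e-15). It fell by 1.58 in endothelial-like (adjusted p = 1.54e-20), by 0.75 in mural-like (adjusted p = 5.64e-05) and by 0.52 in tubular-like cells (adjusted p = 1.59e-05), in 4 of 4 libraries each. Parietal epithelial-like cells exceeded podocyte-like cells by 0.88 (edgeR adjusted p = 1.19e-09) and these exceeded mural-like cells by 1.31 (adjusted p = 3.46e-11). Mural-like and tubular-like cells did not differ past the threshold (-0.19, 95% interval -0.53 to 0.16, adjusted p = 0.434), and tubular-like cells exceeded endothelial-like cells by 0.85 (adjusted p = 1.50e-07).

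Ankrd1, which in heart muscle responds to stretch, was scarcer. Podocyte-like cells gave nearly the same level in each library, 60.2, 60.5, 61.5 and 63.5 CPM. Parietal epithelial-like cells gave 69.5, 37.2, 220.3 and 243 CPM from 5 to 23 UMIs, so that replicate 2 fell below podocyte-like cells while replicates 3 and 4 stood far above them. Endothelial-like cells had 19.7, 7.66, 24.6 and 8.29 CPM, and mural-like and tubular-like cells had 0 to 6 UMIs per library. Ankrd1 rose by 2.76 ± 0.352 in parietal epithelial-like cells (log2, SE, edgeR adjusted p = 8.19e-10) and by 1.59 ± 0.229 in podocyte-like cells (adjusted p = 9.38e-09), although only 2 of 4 podocyte-like libraries exceeded the plain mean of the other types, which the parietal epithelial-like value dominates. In tubular-like cells it fell by 2.53 (edgeR adjusted p = 1.52e-05), and without replicate 3 by 1.84 (adjusted p = 0.0119). The endothelial-like fold was -0.81 (adjusted p = 0.108) and the mural-like fold -1.0 (adjusted p = 0.360). The step between parietal epithelial-like and podocyte-like cells (0.94, edgeR adjusted p = 0.0241) was lost without replicate 3 (0.58, adjusted p = 0.504) or replicate 4 (0.64, adjusted p = 0.358), and without the library block (0.97, adjusted p = 0.0872). Podocyte-like cells exceeded mural-like cells by 2.07 (edgeR adjusted p = 0.00440), but by 1.54 without replicate 4 (adjusted p = 0.0560) and by 3.03 without replicate 3 (adjusted p = 0.00196). The difference between endothelial-like and tubular-like cells (1.38, adjusted p = 0.0417) was also lost without replicate 1 (1.42, adjusted p = 0.0605) or replicate 3 (0.71, adjusted p = 0.397).

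Amotl2 was shared by podocyte-like and parietal epithelial-like cells at like levels. Podocyte-like cells gave 124, 190.1, 221 and 225 CPM, and parietal epithelial-like cells 101, 238, 354 and 203 CPM. The sets overlap, and their difference did not pass the threshold (log2 fold 0.15 for parietal epithelial-like over podocyte-like, 95% interval -0.23 to 0.54, edgeR adjusted p = 0.802). Tubular-like cells gave 52.3 to 79.2 CPM, endothelial-like cells 47.0 to 79.9 CPM and mural-like cells 28.3 to 119 CPM, all below the lowest podocyte-like library. Amotl2 rose by 1.05 ± 0.130 in podocyte-like cells (log2, SE, edgeR adjusted p = 8.08e-11) and by 1.24 ± 0.221 in parietal epithelial-like cells (adjusted p = 6.63e-06). It fell by 0.84 in endothelial-like cells (adjusted p = 0.000512) and by 0.61 in tubular-like cells (adjusted p = 0.00688), where the call was lost without replicate 2 (-0.52, adjusted p = 0.0569). The mural-like fold of -0.84 (edgeR adjusted p = 0.0690) passed only without replicate 1 among the 4 libraries left out in turn (-1.56, adjusted p = 0.00228). No neighbours below podocyte-like cells differed past the threshold.

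Ajuba was the rarest of the 5, with 638 UMIs in kept cells. Podocyte-like cells gave 34.2, 44.4, 50.8 and 48.5 CPM, against 6.32, 29.7, 105 and 54.1 CPM in parietal epithelial-like cells, from 1 to 11 UMIs. The sets overlap. The fitted log2 fold of parietal epithelial-like over podocyte-like cells was -0.08 (95% interval -0.84 to 0.67, edgeR adjusted p = 0.957). Tubular-like cells gave 8.19, 16.2, 23.3 and 35.8 CPM, and endothelial-like cells 2.76 to 20.5 CPM, while 2 of 4 mural-like libraries had no UMI. Only the podocyte-like rise (1.25 ± 0.239, log2, SE, edgeR adjusted p = 8.75e-06) and the endothelial-like fall (by 1.31, adjusted p = 0.0139) passed the threshold. The endothelial-like call rests on replicate 4: without it the fold was -0.56 (adjusted p = 0.501), and without replicate 3 it was -1.95 (adjusted p = 0.00683). The parietal epithelial-like fold was 1.14 (edgeR adjusted p = 0.0850) and became 1.48 without replicate 1 (adjusted p = 0.0241). Podocyte-like cells exceeded tubular-like cells by 0.94 (edgeR adjusted p = 0.00203), and by 0.77 without replicate 2 (adjusted p = 0.0583).

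Transcripts of podocyte markers were also counted in droplets of other types. Carried-over RNA and the cells' own expression were not separated, for the markers or the members, and their parts in the low values above were not tested. Podocyte markers stood in endothelial-like cells at 20.1% of their podocyte-like level (15.6% to 26.1% across libraries). Ctgf stood there at 16.5% (11.6% to 20.5%) and Cyr61 at 24.8% (14.0% to 30.1%), so both overlapped the marker level. In tubular-like cells podocyte markers were at 11.1% (8.74% to 13.7%), and Ctgf at 18.2% (16.4% to 21.2%) and Cyr61 at 40.5% (31.0% to 44.2%) were both above the whole marker range. In mural-like cells markers were at 17.8% (13.2% to 24.3%), against 66.2% (32.2% to 86.0%) for Ctgf and 41.7% (23.1% to 60%) for Cyr61. In parietal epithelial-like cells markers were at 72.5% (59.8% to 82.6%), against 221% (195% to 254%) for Ctgf and 192% (175% to 209.8%) for Cyr61. Immune-like cells, too few to test, held markers at 55.9% of the podocyte-like level and Ctgf at 53.4%. When droplets with at least 2 marker UMIs of another type were left out, mural-like Cyr61 was no longer lower (log2 fold 0.22, edgeR adjusted p = 0.633) and mural-like Ctgf passed as higher (2.0, adjusted p = 1.40e-05), in a fit without parietal epithelial-like cells, of which at most 4 per library remained. All 5 podocyte-like rises were called under every alternative tried.

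At a lower mitochondrial limit the tubular-like name took in other cells, so the folds there do not check the falls above. The same cells are in the reference of the other types at that limit. Tubular-like cells had a median mitochondrial share of 13.4% to 14.7% across libraries at the 20% limit. Yet replicate 2 held 424 cells of that name at 10%, against 457 at 20%. With a limit of 10% in place of 20%, the folds were -0.18 for Ctgf (edgeR adjusted p = 0.311), 0.10 for Cyr61 (adjusted p = 0.601), 0.45 for Ankrd1 (adjusted p = 0.462) and 0.35 for Amotl2 (adjusted p = 0.190). Podocyte markers then made up 2.12% ± 0.280 of UMIs in the cells named tubular-like, against 0.323% ± 0.0859 at the 20% limit (SD, n = 4 libraries). The part of these markers in the change was not tested.

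The balance of the CCN pair differed between cell types. Per Ctgf UMI, tubular-like cells held 4.18, 2.09, 3.12 and 3.28 Cyr61 UMIs in replicates 1 to 4. Podocyte-like cells held 1.80, 1.43, 1.18 and 1.23, and parietal epithelial-like cells 1.59, 1.22, 1.11 and 1.01. Mural-like cells held 1.03, 0.667, 0.846 and 1.05, and endothelial-like cells 2.82, 1.32, 1.49 and 3.19. Tubular-like cells were thus above podocyte-like cells, and podocyte-like above mural-like cells, in each library and without overlap, as in the plot of Cyr61 over Ctgf. No test was run on these ratios.

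**Figure D2:**
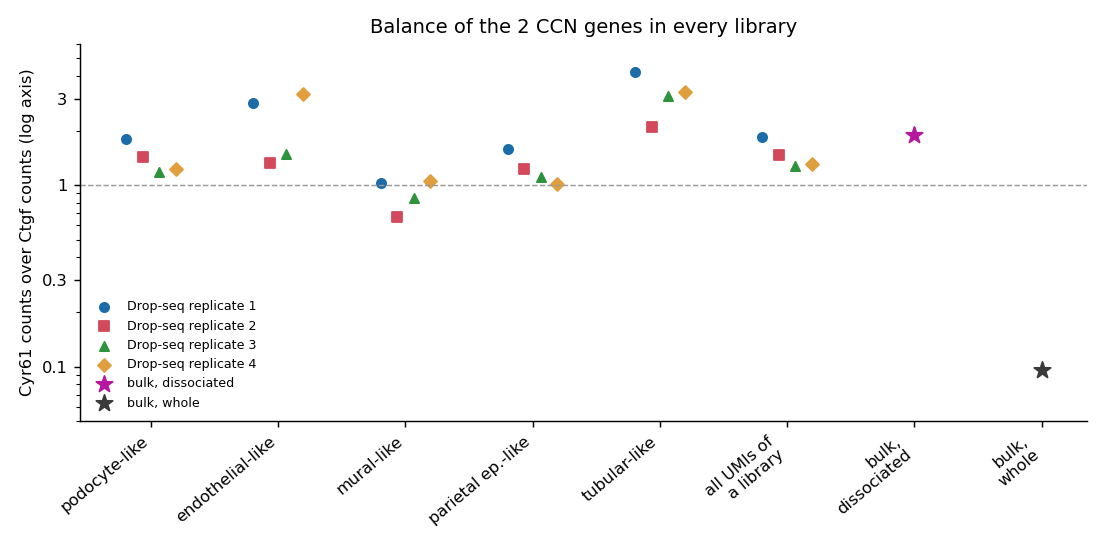
Cyr61 counts over Ctgf counts on a log axis, for 5 cell types and for all UMIs of each Drop-seq library (coloured symbols, replicates 1 to 4) and for the 2 bulk libraries (stars); the dashed line marks equal counts. The dissociated bulk library, at 1.90, is just above the Drop-seq libraries (1.27 to 1.85), and the whole-glomerulus library is far below at 0.0959. Bulk read counts grow with transcript length and UMIs do not; per kilobase the bulk ratios are 2.69 and 0.136.

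The share of podocyte-like cells in which the CCN pair was seen grew with depth. After each cell was thinned to 500 UMIs, Ctgf was seen in 21.8% ± 4.32 of podocyte-like cells and Cyr61 in 29.0% ± 3.69 (SD, n = 4 libraries, 9702 of 10354 cells deep enough, median 1064 UMIs before thinning). At 1000 UMIs per cell (5275 cells) the shares were 36.4% ± 6.30 and 47.6% ± 5.24, and at least 1 of the pair was seen in 62.0%, 65.5%, 59.2% and 72.0% of cells in replicates 1 to 4. Unthinned, the shares were 36.0% ± 7.05 and 46.2% ± 6.28. Amotl2 was seen in 8.30% ± 1.83, Ankrd1 in 2.91% ± 0.332 and Ajuba in 1.95% ± 0.301 of thinned podocyte-like cells. Parietal epithelial-like cells gave 36.5% ± 5.42 for Ctgf and 42.5% ± 6.02 for Cyr61. Endothelial-like cells (median 713 UMIs) gave the lowest shares of the CCN pair, 3.34% ± 1.27 for Ctgf and 7.42% ± 2.66 for Cyr61, and unthinned 5.09% ± 0.166 and 10.1% ± 2.45. Single podocyte-like cells reached 24 UMIs of Ctgf and 24 of Cyr61, and the tenth of podocyte-like cells richest in each gene held 58.7% of the Ctgf UMIs and 49.1% of the Cyr61 UMIs.

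Cyr61 was seen more often in podocyte-like cells that had a Ctgf UMI. In thinned podocyte-like cells with a Ctgf UMI, Cyr61 was seen in 37.8%, 35.5%, 31.5% and 40.8% of cells in replicates 1 to 4, against 26.8%, 28.8%, 22.1% and 29.7% of cells without one. The difference averaged 9.54 percentage points (SD 2.05, n = 4 libraries) and was positive in every library. With 1000 UMIs per cell it averaged 8.03 points (SD 1.11). Parietal epithelial-like cells showed 53.2%, 45.7%, 50% and 65.2% with Ctgf, against 34.1%, 42.4%, 28.8% and 37.9% without, from 52 to 132 cells per library. At 1000 UMIs per cell the sign turned in replicate 2 of these cells (65.5% with Ctgf, against 72.4% without) and stayed in the other libraries. At 500 UMIs per cell the difference was negative in endothelial-like replicate 2 (-5.39 points), mural-like replicate 3 (-3.28) and tubular-like replicate 1 (-2.43). These values rest on 5, 4 and 8 cells with a Ctgf UMI. In the other libraries of those types it was positive. Cells of 1 library are not replicates, so no test was run.

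Within podocyte-like cells, the CCN pair moved with cluster in different ways. Cyr61 averaged 1171 ± 280.3 CPM in cluster 1 (1661 cells) and 492 ± 106 CPM in cluster 4 (1739 cells), with no overlap between their libraries (894 to 1558 and 387 to 636 CPM). Ctgf averaged 729 ± 92.5 CPM in cluster 1, against 479 ± 100.1 CPM in cluster 4 and 481 ± 35.2 CPM in cluster 3 (SD, n = 4 libraries). Cluster 3 kept Cyr61 at 849 ± 190.1 CPM, and cluster 12 had both genes at nearly equal levels, 702 ± 183 CPM of Ctgf and 693 ± 166 CPM of Cyr61. Immediate-early genes, the first genes cells turn on after a stimulus, made up 5.26% of the UMIs of cluster 1 and 3.51% of those of cluster 4; their part in the difference was not tested. Cluster 8 held 938 cells, of which replicate 4 gave 922, and there Ctgf reached 988 CPM and Cyr61 1016 CPM. In endothelial-like cells, Cyr61 averaged 474 ± 269 CPM in cluster 15 (111 cells, n = 3 libraries) and 199 ± 69.9 CPM in cluster 14 (1744 cells, n = 4), while Ctgf averaged 69.4 ± 82.9 and 106 ± 8.05 CPM there. Cluster membership depends on settings, and these values are a description with no test.

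**Figure D3:**
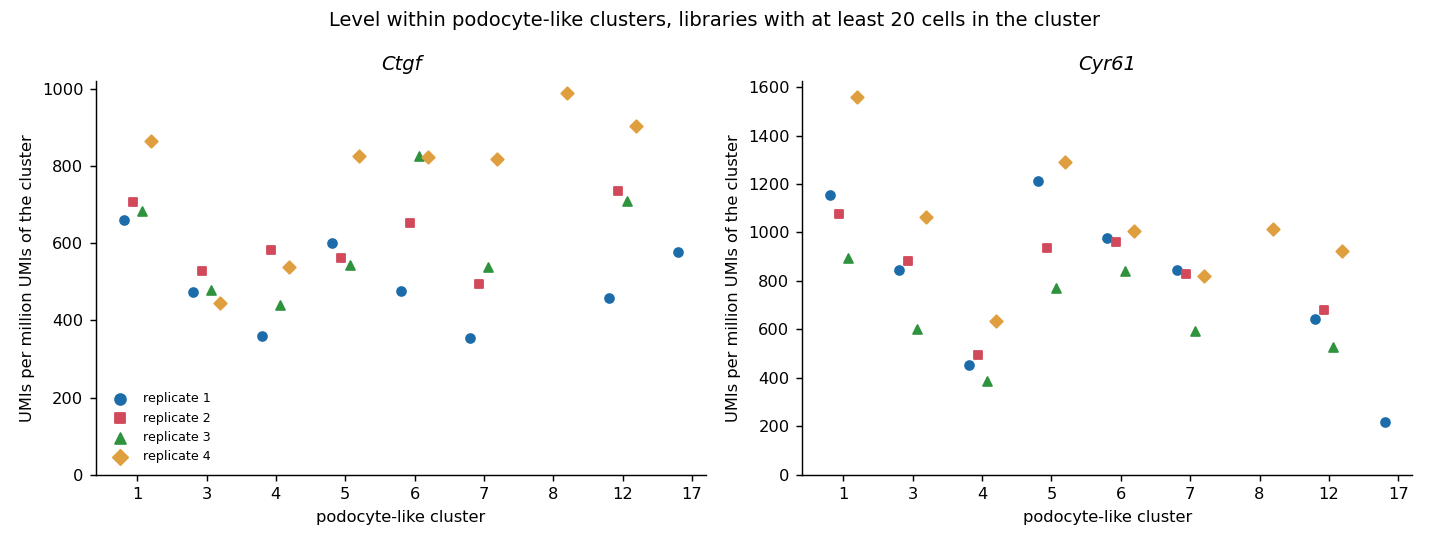
Ctgf (left) and Cyr61 (right) in CPM of each podocyte-like cluster, for libraries with at least 20 cells in it (coloured symbols, replicates 1 to 4). Cyr61 separates cluster 1 from cluster 4 in every library, and replicate 4 is the highest library for Ctgf in 4 of the 7 clusters with all 4 libraries.

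Over the 20 sums of a library and a cell type, the genes most like each member were ranked by Pearson's r of log2(CPM + 1). Nearest to Ctgf were Cryab (a small heat-shock protein, r = 0.935), Gsn (gelsolin, 0.919), Sdc2 (a syndecan, 0.916), Sap30l (0.915) and F3 (tissue factor, 0.914). Nearest to Cyr61 were F3 (0.960), Tdrkh (0.893), Rad21 (0.886), Ctgf (0.885) and Sdc2 (0.883). Nearest to Ankrd1 were Wt1 (a podocyte transcription factor, 0.875), C1qtnf7 (0.862), Prkrip1 (0.862), Cxcl12 (a chemokine, 0.861) and Tspan15 (0.858). Nearest to Amotl2 were Col4a3 (a basement membrane collagen chain, 0.921), St3gal6 (0.902), Npnt (nephronectin, 0.900), Rad21 (0.891) and Foxd1 (0.889). Nearest to Ajuba were Clcn3 (a chloride transporter, 0.884), Gm4524 (0.865), Pigp (0.847), B3gat3 (0.835) and Ska2 (0.832). Among the members, Amotl2 and Ajuba (0.771) and Cyr61 and Amotl2 (0.755) came next after Ctgf and Cyr61, and Ankrd1 and Ajuba were least alike (0.200). The 20 points share 4 libraries and differ in depth, and no p is given.

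Of the 4 other CCN genes, Nov, Wisp1, Wisp2 and Wisp3, none passed the filter on low counts, and Wisp1 had its highest mean in tubular-like cells, 14.8 ± 12.5 CPM. Amotl1, an angiomotin relative of Amotl2, ran the other way. It averaged 2.25 ± 1.26 CPM in podocyte-like cells, 146 ± 45.0 CPM in endothelial-like and 134 ± 43.4 CPM in mural-like cells (SD, n = 4). Its log2 fold was -3.17 in podocyte-like, 4.38 in endothelial-like and 4.03 in mural-like cells (edgeR adjusted p = 4.51e-05, 1.49e-25 and 7.76e-13). Among the LIM proteins related to Ajuba, Wtip rose by 3.41 in mural-like cells (178 ± 80.5 CPM, edgeR adjusted p = 3.96e-14), with Lpp (2.15, adjusted p = 1.20e-11) and Zyx, or zyxin, of focal adhesions (1.46, adjusted p = 0.000223). In podocyte-like cells Lpp fell by 1.88 (23.1 ± 6.17 CPM, adjusted p = 1.67e-16). Ankrd2 and Ankrd23, the muscle relatives of Ankrd1, did not pass the filter, with 47 and 3 UMIs in podocyte-like cells.

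Yap1 itself was close to even. It averaged 73.7 ± 13.7 CPM in podocyte-like, 50.2 ± 5.02 in endothelial-like, 72.0 ± 35.2 in mural-like, 65.9 ± 14.3 in parietal epithelial-like and 62.0 ± 21.7 in tubular-like cells (SD, n = 4), and passed the threshold in none (edgeR adjusted p = 0.114 or higher, unadjusted p not under 0.05 in any type). Tead1, its DNA-binding partner, was higher in podocyte-like (121 ± 30.4 CPM, log2 fold 0.97, adjusted p = 3.09e-09) and parietal epithelial-like cells (116 ± 32.5 CPM, 0.84, adjusted p = 0.0128). It was lower in endothelial-like (39.0 ± 13.2 CPM, edgeR adjusted p = 0.000121) and tubular-like cells (38.2 ± 12.9 CPM, adjusted p = 0.000640). Wwtr1, which encodes TAZ, was higher in endothelial-like (149 ± 30.5 CPM, 1.0, adjusted p = 3.26e-07) and parietal epithelial-like cells (142 ± 30.5 CPM, 0.84, adjusted p = 0.00541). In mural-like (57.3 ± 14.6 CPM, -0.96, edgeR adjusted p = 0.0370) and tubular-like cells (44.7 ± 8.31 CPM, -0.84, adjusted p = 0.000273) it was lower. Tead2 was also higher in endothelial-like cells (41.6 ± 11.4 CPM, edgeR adjusted p = 2.97e-13), against 0.143 ± 0.171 CPM in podocyte-like cells and no UMI in parietal epithelial-like cells, so no fold is given. Of the 14 genes of the Hippo kinase cascade and its regulators, 8 were higher and 2 lower in podocyte-like cells, where 25.6% and 20.4% of all genes were. The rises included Ptpn14 (1.03, edgeR adjusted p = 3.51e-07), which binds YAP, the kinase gene Lats2 (1.01, adjusted p = 1.40e-10), itself a YAP target, and the kinase gene Stk4 (0.89, adjusted p = 6.09e-05). Ptpn14 (1.65, edgeR adjusted p = 4.98e-06) and Lats2 (0.78, adjusted p = 0.0157) were also higher in parietal epithelial-like cells. Wwc1, which encodes KIBRA, was lower in podocyte-like cells (-3.17, edgeR adjusted p = 0.000199) and higher in tubular-like cells (4.55, adjusted p = 9.59e-23).

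Of 18 other YAP and TAZ targets listed, 15 passed the filter. Lats2 and Ptpn14 are on this list and on the Hippo list above, and count in both. In podocyte-like cells 10 of these were higher and 1 lower, where 25.6% and 20.4% of all genes were, with a median log2 fold of 0.98 beside 0.02 over all genes. Parietal epithelial-like cells also had 10 higher and 1 lower (10.7% and 5.06% of all genes, median 1.09). Tubular-like cells had 1 higher and 12 lower (26.3% and 27.3%, median -1.46). Endothelial-like cells had 4 higher and 9 lower (28.2% and 21.9%, median -0.99), and mural-like cells 7 higher and 3 lower (11.9% and 9.14%, median 0.72). The endothelial-like rises include Nt5e (2.92, edgeR adjusted p = 0.00388), although only 1 of 4 libraries exceeded the plain mean of the other types. The SE of Nt5e was not usable in podocyte-like cells, so its folds and calls are insecure. Gadd45a, a stress-response gene, averaged 2006 ± 326 CPM in podocyte-like cells (1.85, edgeR adjusted p = 2.86e-35), and Myof (myoferlin) 251 ± 33.8 CPM (1.93, adjusted p = 2.03e-24). F3 averaged 227 ± 51.3 CPM in parietal epithelial-like cells (1.99, edgeR adjusted p = 2.73e-13) and was also higher in podocyte-like cells (1.13, adjusted p = 4.98e-12). Gadd45a (1.18, edgeR adjusted p = 4.04e-17) and Myof (1.89, adjusted p = 1.81e-12) were also higher in parietal epithelial-like cells. In mural-like cells Ccdc80 (3.62, edgeR adjusted p = 3.76e-12), Tgfb2 (2.86, adjusted p = 7.94e-06) and Arhgef17 (1.45, adjusted p = 0.00167) were higher. Endothelial-like cells had higher Tgfb2 (2.55, adjusted p = 1.79e-09) and Asap1 (2.37, adjusted p = 6.11e-15). The dot plot of folds shows each of the 15 genes in each type.

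**Figure D4:**
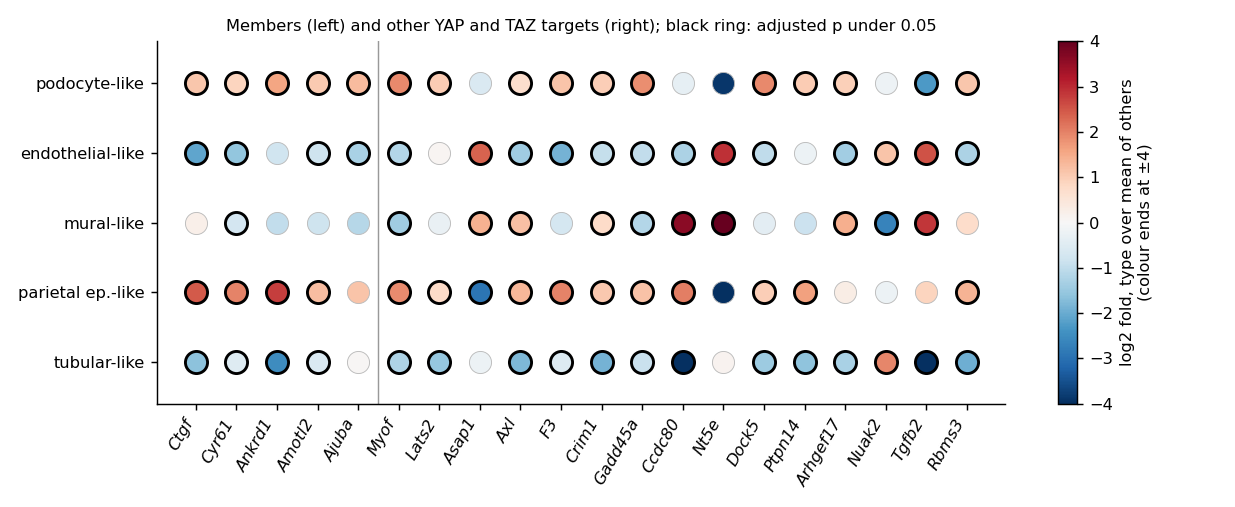
Each dot is 1 gene (x axis) in 1 cell type (y axis), coloured by the log2 fold of that type over the mean of the other 4, with the 5 members left of the line and 15 other targets right of it. Black rings mark adjusted p under 0.05. The members and most other targets are red in podocyte-like and parietal epithelial-like cells, while Ccdc80, Nt5e and Tgfb2 are red in mural-like cells. The Nt5e folds are insecure, as its SE was not usable in podocyte-like cells.

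Receptors for CCN proteins numbered 11 on the list, and 7 were tested. Of these, 4 were higher and 1 lower in podocyte-like cells (25.6% and 20.4% of all genes) and 5 were higher and 1 lower in parietal epithelial-like cells (10.7% and 5.06%). Sdc4 (syndecan-4) averaged 5204 ± 389 CPM in podocyte-like cells (log2 fold 1.42, edgeR adjusted p = 5.55e-29) and 5328 ± 769 CPM in parietal epithelial-like cells (1.37, adjusted p = 6.36e-25). The integrin genes Itgb5 (456 ± 39.0 CPM, 1.74, adjusted p = 5.30e-28) and Itgav (147 ± 18.5 CPM, 0.98, adjusted p = 5.97e-09) were higher in podocyte-like cells. Both were also higher in parietal epithelial-like cells (Itgb5 329 ± 67.0 CPM, 1.08, edgeR adjusted p = 1.20e-07, and Itgav 171 ± 60.1 CPM, 1.10, adjusted p = 0.000308). Lrp1, a large endocytic receptor, was highest in mural-like cells (49.1 ± 14.6 CPM, 4.71, adjusted p = 2.57e-07). Itga6 was higher in tubular-like (128 ± 22.9 CPM, edgeR adjusted p = 2.19e-25) and endothelial-like cells (94.8 ± 11.3 CPM, adjusted p = 1.66e-17), and had no UMI in any parietal epithelial-like sum, so no fold is given. Of 17 immediate-early genes tested, 15 were higher and 1 lower in podocyte-like cells (25.6% and 20.4% of all genes), and 11 higher and 1 lower in the parietal epithelial-like cluster (10.7% and 5.06%). Tubular-like cells had 1 higher and 14 lower (26.3% and 27.3%), endothelial-like cells 4 and 7 (28.2% and 21.9%), and mural-like cells 5 and 8 (11.9% and 9.14%). The tubular-like rise was Ier3 (0.21, edgeR adjusted p = 0.0414), and the mural-like rises include Klf4 (0.49, adjusted p = 0.00750). In each, only 1 of 4 libraries exceeded the plain mean of the other types. The part of immediate-early genes in the members' differences between types was not tested.

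The bulk libraries set dissociated, sorted and fixed cells against whole glomeruli, with 1 library each, so the differences below have no replicate check. The CCN pair moved in opposite directions. Cyr61 had 35315 counts in dissociated cells (exact Poisson 95% interval 34948 to 35685), against 5087 (4948 to 5229) in whole glomeruli. Scaled by TMM, these were 1604 and 161 CPM, a log2 fold of 3.32 that ranked 63 of 12692 genes. Ctgf had 18599 counts (18333 to 18868) in dissociated cells, against 53039 (52589 to 53492) in whole glomeruli, or 845 and 1674 CPM, a log2 fold of -0.99. Intervals cover counting error only. Per Ctgf count, the dissociated library thus held 1.90 Cyr61 counts and the whole library 0.0959, or 2.69 and 0.136 per kilobase of exon, a 19.8-fold difference that no scaling of the libraries can alter.

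Ankrd1 had 1150 counts (95% interval 1084 to 1218) in dissociated cells and 567 (521 to 616) in whole glomeruli, or 52.2 and 17.9 CPM, a log2 fold of 1.54. Amotl2 had 10031 and 10528 counts (456 and 332 CPM, log2 fold 0.45), and Ajuba 3072 and 3417 counts (139.5 and 108 CPM, 0.37). Thus 2 of 5 members, Cyr61 and Ankrd1, were at least 2-fold higher in dissociated cells, where 10.7% of 12692 genes were, and none was 2-fold lower, where 18.9% of genes were. Ctgf, at 1.98-fold lower, was just short of that limit and passed it when the libraries were scaled by total count (log2 fold -1.30). The median over all genes was -0.01. In bulk, fewer cells of a type and less RNA per cell cannot be told apart.

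**Figure D5:**
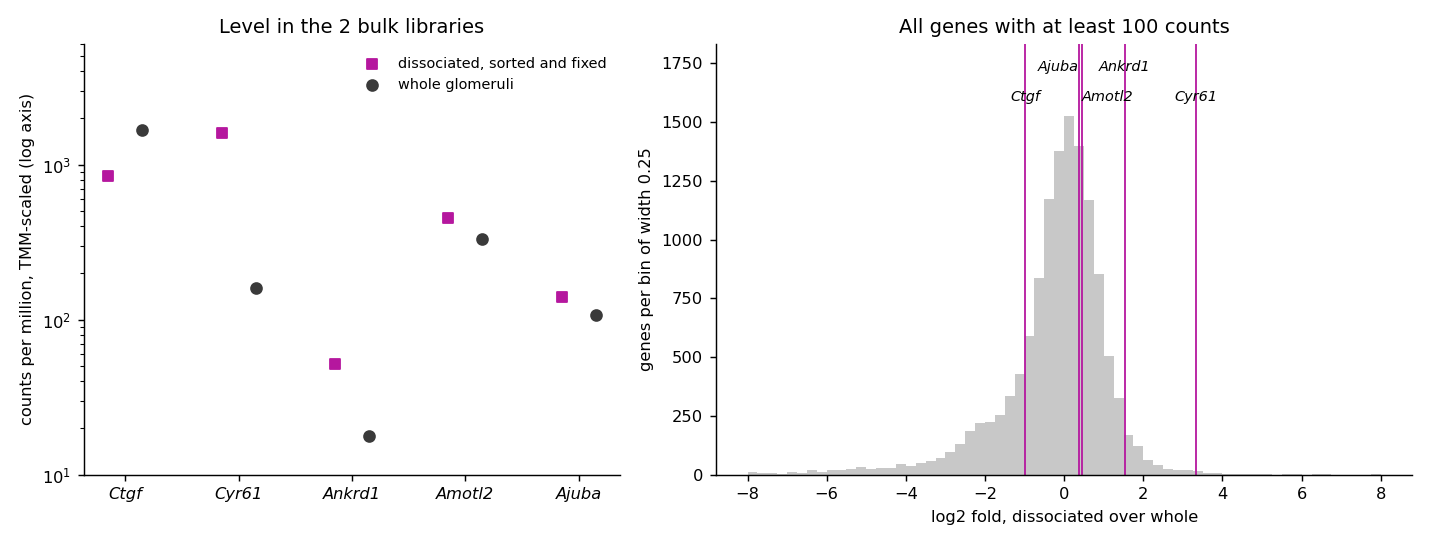
Left, TMM-scaled CPM on a log axis for the 5 genes in the dissociated (squares) and whole (circles) bulk libraries. Right, the number of genes per bin of log2 fold, dissociated over whole, for 12692 genes, with lines at the 5 members; Cyr61 at 3.32 lies in the upper tail and Ctgf at -0.99 on the lower flank.

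Levels of cell type markers differed between the bulk libraries. Beside the counts of genes below, 10.7% of all 12692 genes were at least 2-fold higher and 18.9% at least 2-fold lower. All 12 podocyte markers were above 0 on the log2 fold (0.16 to 3.11, median 1.23), with summed levels of 51232 CPM in dissociated cells and 25325 CPM in whole glomeruli. The 12 endothelial markers had a median of -2.0 (2205 and 8577 CPM), and the 10 mural markers measured a median of -2.16 (672 and 3501 CPM), with Itga8, a mesangial integrin gene, at -6.44. Immune markers were higher in 6 of 7 by at least 2-fold (median 1.48, 157 and 55.8 CPM). Tubular markers had 1 of 12 higher and 4 lower (1520 and 2821 CPM), parietal epithelial markers 3 of 12 higher and 3 lower (613 and 583 CPM), and red blood cell markers 3 of 4 lower (53.6 and 122 CPM). Immediate-early genes had a median of 3.24, with 17 of 19 at least 2-fold higher (49210 CPM in dissociated cells and 5599 CPM in whole glomeruli). Their part in the members' folds was not tested. Among genes of the pathway lists, Amotl1 stood at -4.18, Lrp1 at -4.88, Nt5e at -5.23, Lpp at -2.53 and Tead2 at -2.26, while F3 stood at 3.13, Gadd45a at 2.60, Rassf1 at 2.12, Sdc4 at 1.92 and Itgb5 at 1.17. Of the 16 other YAP and TAZ targets measured, 3 were at least 2-fold higher and 5 at least 2-fold lower (median -0.52). Over all genes the shares were 10.7% and 18.9% and the median -0.01, so with 16 genes these counts are a description only.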

How the data were processed

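The deposited tables hold counts: UMI counts per gene and barcode for 4 Drop-seq libraries, and read counts per gene for 2 bulk libraries. STAR and HTSeq are named per the submitters' processing notes; their versions, the genome build, the annotation and the strand setting are not given in the sources used here. Bulk rows naming no gene (no feature 6.14% and 9.68%, ambiguous 3.87% and 3.77%, not unique 14.7% and 9.47% in the dissociated and whole libraries) were left out. Kept barcodes (13993 of 15465) had 300 or more genes and no more than 20% of UMIs from mitochondrial genes, and no doublet caller was run. Cells were clustered in scanpy 1.11.5 (2000 variable genes without the 86 members and pathway genes, 30 components, 15 neighbours, resolution 1) and named from fixed markers. UMIs were summed per library and type (at least 20 cells), filtered on low counts (7551 genes) and tested with edgeR 4.0.16 (R 4.3.3), TMM scaling and library as a block, since each library gives every type, with Benjamini-Hochberg adjustment over all genes. For shares of cells, each cell was thinned to 500 UMIs. Bulk values are CPM with TMM, a prior count of 2 and a minimum of 100 counts. DESeq2 1.42.0, other filters and left-out libraries were alternatives. The edgeR step was tested on simulated data for podocyte-like cells against the mean of the others only. The simulation had no library effect and no differences among the other types, so it does not check the other comparisons. Named genes were the 5 members, up to 3 per list, type and direction by log2 fold, up to 2 per list and direction in bulk, and the 5 genes most like each member; Yap1, the untested relatives and other genes outside that rule were chosen after their values were seen. Members and lists were chosen with earlier results of these data known.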

Additional observations from a re-analysis of the deposited data

Results flagged for a closer look

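Ctgf in parietal epithelial-like cells reached 2246 CPM in replicate 4, while the other libraries gave 1131, 1302 and 1111 CPM. The gap to the nearest library was 0.832 of the whole range, just above Dixon's 95% critical value for 4 libraries. It was 1 of 25 groups of a gene and a cell type examined, and chance alone marks about 1 in 20. Without any 1 library in turn, the log2 fold of Ctgf in these cells lay between 2.35 and 2.5, and edgeR called it higher each time.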

How the results depend on the processing

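The 5 genes in 5 cell types gave 342 values under the alternatives. Of these, 312 kept their direction and their side of the threshold, 10 passed it newly, 10 no longer passed it and 10 changed sign. The tubular-like values among them at the 10% mitochondrial limit are for a name that took in other cells. Values of the other types at that limit have those cells in their reference. All 5 podocyte-like rises were called under every setting run. Each library supplied all cell types, so library served as the replicate block. With no replicate block, genes called in podocyte-like cells numbered 1709 higher and 1368 lower, against 1932 and 1541 with it, and of the member values only the Ankrd1 step between parietal epithelial-like and podocyte-like cells lost its call (0.97, edgeR adjusted p = 0.0872). The uncalled Amotl2 difference between endothelial-like and mural-like cells changed sign to 0.04. The cause of the changes below was not tested.

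At a mitochondrial limit of 10% the tubular-like name took in other cells, so tubular-like values and counts there do not check the main ones. Those cells are also in the reference of the other types, so values and counts of these types are no clean check either. With that limit, tubular-like folds were -0.18 for Ctgf, 0.10 for Cyr61, 0.45 for Ankrd1 and 0.35 for Amotl2, and mural-like folds -0.06 for Ctgf and -2.64 for Ankrd1. With at least 500 detected genes, they were 0.25 for endothelial-like Ankrd1, and -0.09 for Ctgf and -1.16 for Amotl2 in mural-like cells. Against the other types summed, folds were -1.73 for endothelial-like Ankrd1, -0.45, -1.78 and -1.26 for mural-like Ctgf, Ankrd1 and Amotl2, 0.43 for parietal epithelial-like Amotl2 and -0.74 for tubular-like Ajuba. With mixed droplets left out (3258 cells; parietal epithelial-like cells could not be fitted), they were -0.53 for endothelial-like Amotl2, 2.0 and 0.22 for mural-like Ctgf and Cyr61, and -0.32 and -0.80 for tubular-like Cyr61 and Amotl2. A milder form chosen after seeing the data (2480 cells) gave -0.47 for mural-like Cyr61 and -0.63 for tubular-like Amotl2. Amotl2 was -1.05 in mural-like cells with no filter on low counts and -0.45 in tubular-like cells by DESeq2. Ajuba was 1.21 in parietal epithelial-like cells at clustering resolution 2.0 and -0.11 in tubular-like cells at 0.5. Leaving out 1 library in turn gave -1.95 to -0.56 for endothelial-like Ajuba, -1.56 to -0.48 for mural-like Amotl2, 0.53 to 1.48 for parietal epithelial-like Ajuba and -0.59 to -0.52 for tubular-like Amotl2.

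Between neighbours in the order of levels, the uncalled differences that changed sign were, with mixed droplets left out, Cyr61 of mural-like over tubular-like (0.40), Amotl2 of tubular-like over endothelial-like (-0.20) and Amotl2 of endothelial-like over mural-like cells (0.15, and 0.26 in the milder form). Leaving out 1 library in turn, the ranges of those that changed sign were Ankrd1 of mural-like over endothelial-like (-0.72 to 0.17), Amotl2 of parietal epithelial-like over podocyte-like (-0.05 at the lowest), Amotl2 of endothelial-like over mural-like (-0.36 to 0.59), Ajuba of parietal epithelial-like over podocyte-like (-0.76 to 0.29) and Ajuba of mural-like over endothelial-like cells (-1.56 to 1.26).

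Genes called higher and lower numbered 1932 and 1541 for podocyte-like cells, 2127 and 1653 for endothelial-like cells, 897 and 690 for mural-like cells, 810 and 382 for the parietal epithelial-like cluster and 1983 and 2064 for tubular-like cells. The 10% mitochondrial limit gave 1122 and 927 for podocyte-like cells, 1352 higher for endothelial-like cells, 364 and 246 for the parietal epithelial-like cluster, then 722 and 542 for tubular-like cells. The cells named tubular-like changed at that limit and are in the reference of each other type. With mixed droplets left out they were 647 and 387 for podocyte-like cells, 655 and 471 for endothelial-like cells, 323 and 168 for mural-like cells and 433 and 583 for tubular-like cells, and in the milder form 1137 and 745, 1083 and 876, 487 and 315, and 1185 and 925. With no filter, 4789 were higher in podocyte-like and 3393 in tubular-like cells. Summing the other types gave 2403 lower in podocyte-like, 2528 lower in endothelial-like and 200 higher in parietal epithelial-like cells. At least 500 genes gave 1405 and 934 in endothelial-like cells, and DESeq2 380 lower in mural-like cells. Leaving out 1 library gave 455 to 560 lower in mural-like cells. Pathway genes called either way, 30, 30, 25, 22 and 29 in podocyte-like, endothelial-like, mural-like, parietal epithelial-like and tubular-like cells, fell to 10, 8 and 7 in the first 3 and 6 in tubular-like cells with mixed droplets left out, and to 19, 16, 12 and 16 in the milder form. They were 12 in parietal epithelial-like and 14 in tubular-like cells at the 10% limit, 9 in parietal epithelial-like cells with other types summed, and 16 in mural-like cells with 500 genes. Size factors moved the median over all genes by at most 0.13 (podocyte-like 0.02 by TMM and -0.11 by size factors).

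In bulk, scaling by total count gave -1.30 for Ctgf, 3.01 for Cyr61, 1.23 for Ankrd1, 0.14 for Amotl2 and 0.06 for Ajuba, so Ctgf then passed 2-fold lower, with 759 genes at least 2-fold higher. A minimum of 10 counts gave -0.95 for Ctgf, 2307 genes higher and 3862 lower, against 1361 and 2404. Single bulk libraries, and mural-like and parietal epithelial-like sums with few UMIs of Ankrd1 and Ajuba, limit what depth can show.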
